A study of Homo sapiens with 4 samples.

Results

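The mitochondrial carriers of the SLC25A family and the sideroflexins were followed in K562 and THP-1 leukemia cells that had been cultured with or without periplocin, a cardiac glycoside. The members were the protein-coding genes with the symbol SLC25A and a number, or SFXN and a number, and they were grouped by the substrate each is known to carry. They came to 53 of the 20330 genes in the count table, with 48 SLC25A carriers and 5 sideroflexins. K562 is an established line from chronic myeloid leukemia and THP-1 one from acute monocytic leukemia. Each line was sequenced after 72 h in DMSO, the vehicle, and after 72 h in 100 nM periplocin, a dose and time given in the study's methods. The sample titles call the DMSO cultures blank. There were 4 libraries, 1 per condition. All standard errors, intervals and p-values below therefore cover counting error only, and they compare these libraries rather than the conditions.

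The inner mitochondrial membrane is closed to most metabolites, and carriers of the SLC25A family let chosen solutes through, usually by exchanging one for another. They bring ADP, phosphate, cofactors, amino acids and iron into the matrix and take ATP, citrate and aspartate out. Sideroflexins are a separate family of the same membrane. SFXN1 and SFXN3 import serine for folate metabolism, while SFXN2 and SFXN4 are linked to iron and iron-sulfur clusters. In erythroid cells this traffic is heavy, because mitochondrial iron and glycine feed the synthesis of heme.

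Depth ranged from 16381151 to 20622693 counts per library. Genes encoded in mitochondrial DNA took 5.62% of the counts in the K562 DMSO library and 2.07% in its periplocin counterpart, against 5.24% and 3.93% for THP-1. The labels of the lines were compared with markers: 14 erythroid genes summed to 2498 CPM (counts scaled to the library's size) in K562 DMSO and 13.0 in THP-1 DMSO, and 12 monocytic genes summed to 97.2 and 1775 CPM. AZU1 alone made 1108 CPM of that THP-1 sum, and LYZ, SPI1 and CSF1R made 201, 187 and 156 CPM. Other monocytic markers were low in THP-1 DMSO: CD14, S100A8, MPO and S100A9 had 8, 25, 43 and 96 counts. The monocytic marker FCN1 was at 0 in all libraries. In bulk RNA, fewer cells of a kind and less RNA per cell cannot be told apart.

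With periplocin, more of the members fell than rose in both lines, and the same held over all genes tested. A member was taken as changed where the adjusted p of edgeR's exact binomial test was under 0.05 and the change was at least 2-fold. In K562, 3 of 51 tested members (5.88%) rose, against 8.18% of all genes tested, and 7 (13.7%) fell, against 10.1%. These K562 shares lie near those of all genes. In THP-1, 1 of 51 (1.96%) rose, against 8.26% of all genes, and 10 (19.6%) fell, against 9.77%. The 3 that rose in K562 were SLC25A18, SLC25A20 and SLC25A51, and the 1 that rose in THP-1 was SLC25A18. SLC25A10, SLC25A15, SLC25A34, SFXN2 and SFXN4 fell in both lines. SLC25A6 and SLC25A35 passed the test as lower in K562 but not in THP-1, and the reverse held for SLC25A1, SLC25A29, SLC25A39 and SLC25A45. The other 38 members passed in neither line. Under an assumed replicate dispersion of 0.04, 2 of the 10 calls in K562 (SLC25A10 and SLC25A15) and 7 of the 11 in THP-1 (SLC25A1, SLC25A10, SLC25A15, SLC25A34, SLC25A45, SFXN2 and SFXN4) still pass.

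Most changes were smaller than 2-fold. In K562, 37 members had an adjusted p under 0.05 whatever the size of the change, of which 20 were lower, against 30.0% of all genes tested, and 17 higher, against 29.5%. In THP-1 there were 35, of which 26 were lower, against 31.3% of all genes, and 9 higher, against 30.3%. Among members averaging at least 1 CPM, the median log2 fold change was -0.12 over 45 members in K562 and -0.38 over 43 in THP-1. The median over all genes at that level was -0.012 in K562 and -0.025 in THP-1. In K562, 57.8% of these members were lower with periplocin, where 50.8% of all genes were, and in THP-1 67.4%, where 51.5% were. Of the 42 members at that level in both lines, 19 (45.2%) were lower in both, 9 (21.4%) were higher in both, 10 (23.8%) were higher in K562 and lower in THP-1, and 4 (9.52%) were the reverse. Over the 10768 genes at that level in both lines, these shares were 32.1%, 29.6%, 19.5% and 18.9%.

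**Figure D1:**
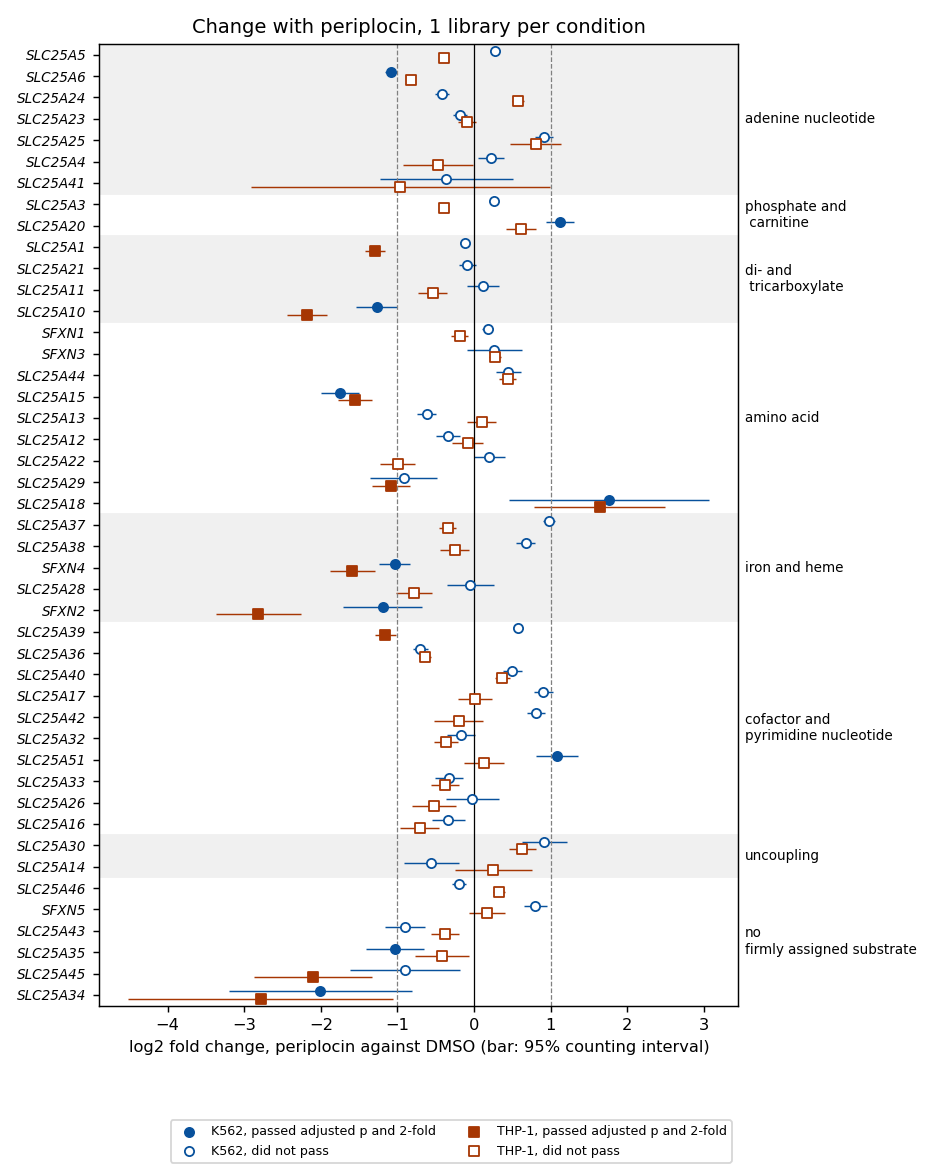
Log2 fold change of each member, periplocin against DMSO, in K562 (circles) and THP-1 (squares), for 45 members over 1 CPM in some library, by substrate group. Filled symbols passed the adjusted p and the 2-fold limit (dashed lines), bars are 95% counting intervals, and points where neither library had over 3 counts are left out. SFXN2, SFXN4, SLC25A10, SLC25A15 and SLC25A34 are filled and left of the lower limit in both lines.

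Promoter windows of RefSeq (GRCh38.p14), from 250 bases before to 50 bases after an annotated start, were found for 45 of the 53 members, in 59 windows. These windows had a median GC content of 66.7%, against 58.7% over all 35116 windows. The E-box CACGTG, which reads the same on both strands and is bound by MYC, USF and related factors, was in 16.9% of member windows and 7.26% of all windows. The 10 members with an E-box were SFXN2, SLC25A13, SLC25A22, SLC25A26, SLC25A31, SLC25A33, SLC25A36, SLC25A38, SLC25A46 and SLC25A51. They do not share a direction of change: SFXN2 fell in both lines, SLC25A51 rose in K562, and SLC25A38 and SLC25A36 passed in neither line. The composite site TGATGNAA of the amino acid stress factor ATF4, searched on both strands, was in 1.69% of member windows (SLC25A11) and 3.62% of all. The GATA site AGATAA, on both strands, was in 5.08% of member windows (SLC25A26 and SLC25A4) and 10.3% of all. The NRF1 core GCGCATGC, on both strands, was in 0 of the member windows, where 3.05% of all windows held it. A match describes letters only, and the factors' binding was not measured.

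The windows of an iron-linked sideroflexin, the heme glycine carrier and the NAD carrier are shown for their E-box, in capitals. It begins 105 bases before the start in SFXN2 (chr10:102714386-102714685, plus strand), 44 bases before it in SLC25A38 (chr3:39383120-39383419, plus strand) and 59 bases before it in SLC25A51 (chr9:37904078-37904377, minus strand).
SFXN2: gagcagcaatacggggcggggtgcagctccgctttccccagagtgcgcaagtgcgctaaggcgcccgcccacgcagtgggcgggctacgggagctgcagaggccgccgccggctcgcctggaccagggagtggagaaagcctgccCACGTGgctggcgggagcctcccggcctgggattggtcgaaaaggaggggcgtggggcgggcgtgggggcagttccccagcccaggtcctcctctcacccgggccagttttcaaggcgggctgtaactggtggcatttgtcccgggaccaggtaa
SLC25A38: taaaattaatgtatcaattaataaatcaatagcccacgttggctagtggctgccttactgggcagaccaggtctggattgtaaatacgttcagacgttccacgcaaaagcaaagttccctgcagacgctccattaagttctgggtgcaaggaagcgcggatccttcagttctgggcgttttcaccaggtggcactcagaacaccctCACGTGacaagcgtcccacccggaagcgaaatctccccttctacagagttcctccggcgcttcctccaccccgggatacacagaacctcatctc
SLC25A51: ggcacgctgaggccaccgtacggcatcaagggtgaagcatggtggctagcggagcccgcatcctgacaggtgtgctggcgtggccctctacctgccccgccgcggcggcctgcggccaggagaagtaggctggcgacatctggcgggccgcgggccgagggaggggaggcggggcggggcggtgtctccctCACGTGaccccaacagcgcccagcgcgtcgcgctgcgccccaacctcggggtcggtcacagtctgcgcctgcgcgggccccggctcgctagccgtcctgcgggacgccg

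The window of SLC25A15 (chr13:40789361-40789660, plus strand) is shown because this carrier fell in both lines. None of the 4 motifs is in it. Its GC content was 80.0%, above the 66.7% median of the member windows.
SLC25A15: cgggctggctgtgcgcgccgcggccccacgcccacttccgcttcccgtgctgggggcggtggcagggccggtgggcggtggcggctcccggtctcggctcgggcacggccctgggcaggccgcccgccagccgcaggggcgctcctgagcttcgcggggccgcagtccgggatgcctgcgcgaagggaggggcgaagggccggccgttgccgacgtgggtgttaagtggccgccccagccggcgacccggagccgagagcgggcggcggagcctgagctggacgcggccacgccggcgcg

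Levels were compared between genes only per length, as CPM per kilobase of transcript. The highest mean level over the 4 libraries was that of SLC25A3, the phosphate importer that feeds ATP synthase, with 298 CPM per kb. The next were the ADP/ATP exchangers SLC25A5 and SLC25A6, with 226 and 137 CPM per kb, the citrate carrier SLC25A1, with 101, and the glutathione carrier SLC25A39, with 87.1. At the other end, SLC25A2 had 0 counts in all libraries, and SLC25A31, SLC25A47, SLC25A48 and SLC25A52 had at most 3 counts in any library. SLC25A27 and SLC25A53 had more than that, but were also under 1 CPM throughout. The ornithine carrier SLC25A2, the testis ADP/ATP exchanger SLC25A31 and the liver gene SLC25A47 are known for narrow tissue ranges.

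**Figure D2:**
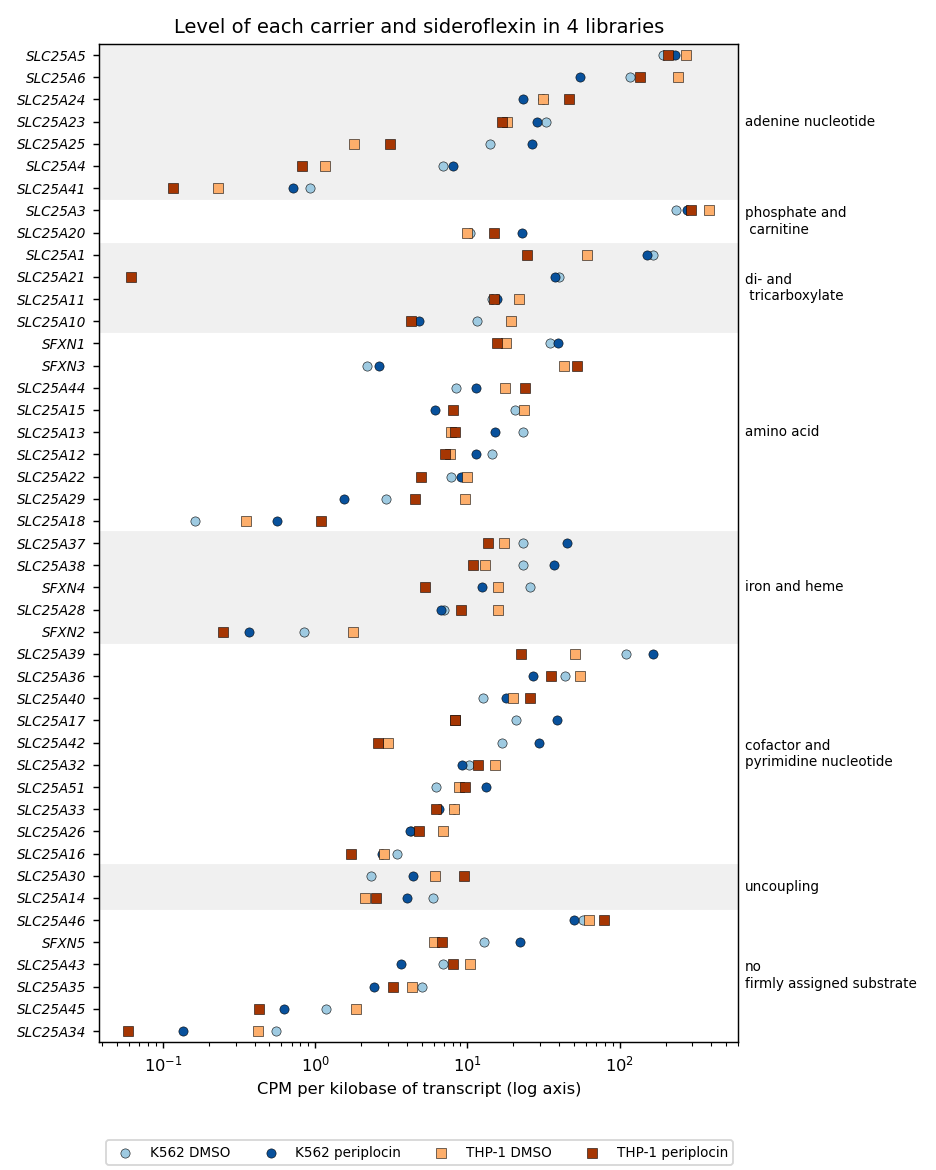
CPM per kilobase of transcript (log axis) of 45 members over 1 CPM in some library, with 1 point for each of the 4 libraries, by substrate group. SLC25A3, SLC25A5 and SLC25A6 have the highest means over the 4 libraries, though SLC25A1 lies above SLC25A6 in both K562 libraries. The THP-1 points of SLC25A21 lie far left of its K562 points, with 1 of them at 0 and not drawn.

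The adenine nucleotide carriers are 8 genes: the ADP/ATP exchangers SLC25A4, SLC25A5, SLC25A6 and SLC25A31, and the ATP-Mg/phosphate carriers SLC25A23, SLC25A24, SLC25A25 and SLC25A41. SLC25A6 was the only one of the 8 to pass the test, and it fell in K562. The gene lies in the pseudoautosomal region, with a copy at chromosome X, 1386152 to 1392724, minus strand, and an equal one on Y. The table lists 2 rows for it with equal values in every library, and these were added up here on the assumption that the counting split the reads of the copies. SLC25A6 had 4109 counts in K562 DMSO and 1979 in K562 periplocin, a 2.11-fold fall (log2 fold change -1.08, SE 0.04, adjusted p = 2.3e-174, exact test). In THP-1 it had 9855 and 4730 counts, 1.78-fold lower (log2 fold change -0.83, SE 0.03), which misses the 2-fold limit.

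SLC25A5, the exchanger of dividing cells, was counted 4158 times in K562 DMSO and 5103 times in K562 periplocin (log2 fold change 0.27, SE 0.03). For THP-1 the counts were 6904 and 4491 (log2 fold change -0.39, SE 0.03). The make-up of the exchanger transcripts differed between the libraries. Per kilobase, SLC25A6 held 37.1% of the 4 exchangers' summed level in K562 DMSO and 18.8% in K562 periplocin, while SLC25A5 held 60.7% and 78.5%. In THP-1, SLC25A6 held 46.8% and 39.3%, and SLC25A5 53.0% and 60.4%. With only 1 of the 2 SLC25A6 rows, the K562 shares would be 22.8% and 10.4%, the THP-1 shares 30.5% and 24.5%, and its mean level 68.7 CPM per kb, below SLC25A1 and SLC25A39. SLC25A4, the heart and muscle form, held between 0.223% and 2.73%.

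**Figure D3:**
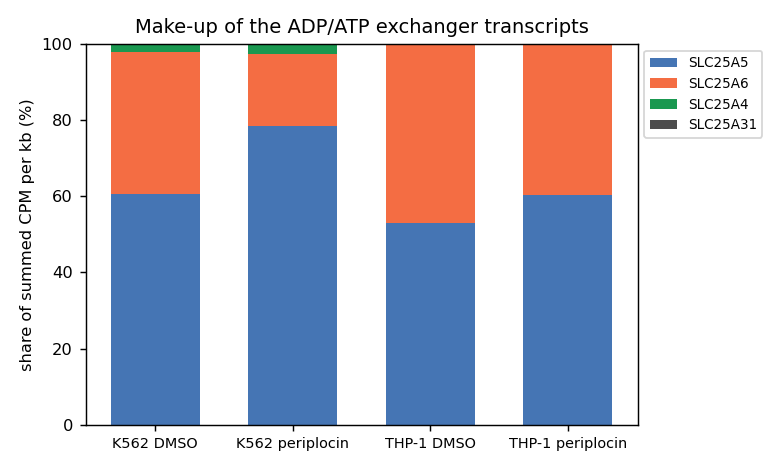
Share (%) of each ADP/ATP exchanger in their summed CPM per kb, in each of the 4 libraries (stacked bars). The SLC25A6 share is lower with periplocin in both lines, at 18.8% against 37.1% in K562 and 39.3% against 46.8% in THP-1.

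Among the calcium-regulated ATP-Mg carriers, SLC25A25 was below 2-fold but higher in both lines, with 840 and 1614 counts in K562 (log2 fold change 0.92, SE 0.06) and 123 and 183 in THP-1 (0.80, SE 0.17). SLC25A24 differed in sign, with 2041 and 1554 counts in K562 (-0.42, SE 0.05) and 2368 and 2996 in THP-1 (0.57, SE 0.04). SLC25A23 had log2 fold changes of -0.19 in K562 and -0.09 in THP-1. SLC25A4 had 522 and 619 counts in K562 and 101 and 62 in THP-1, and SLC25A41, which lacks calcium regulation, had at most 24 counts in any library.

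SLC25A20, the carnitine/acylcarnitine exchanger that brings fatty acids in for oxidation, rose in K562. It had 335 counts in K562 DMSO and 741 in K562 periplocin, a 2.17-fold rise (log2 fold change 1.12, SE 0.10, adjusted p = 1.9e-33, exact test). In THP-1 it had 366 and 477 counts, a log2 fold change of 0.61 (SE 0.10) that misses the limit. Of the 5 carnitine shuttle enzymes, CPT1A, which makes acylcarnitine at the outer membrane, also rose in K562 (1540 to 3207 counts, log2 fold change 1.03, SE 0.05). CPT2, which releases the acyl group in the matrix, fell there from 892 to 436 counts (log2 fold change -1.06, SE 0.08). None of the 5 passed the test in THP-1. SLC25A3 had 6030 and 7330 counts in K562 (0.26, SE 0.03) and 11617 and 7568 in THP-1 (-0.39, SE 0.02).

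The di- and tricarboxylate carriers had a lower sum with periplocin in THP-1. The summed level of SLC25A1, SLC25A10, SLC25A11 and SLC25A21 was 164 CPM in THP-1 DMSO and 68.5 CPM in THP-1 periplocin. This ratio of 0.420 was the lowest of the 8 groups. SLC25A1 made 96.1 and 39.1 CPM of these THP-1 sums, and SLC25A21 at most 0.118 CPM. In K562 the sums were 380 and 342 CPM, a ratio of 0.901. SLC25A10, which exchanges malate and succinate against phosphate, lies on chromosome 17 from 81712236 to 81721016, plus strand (GRCh38). It had 379 and 160 counts in K562, a 2.41-fold fall (log2 fold change -1.27, SE 0.14, adjusted p = 1e-21, exact test), and 727 and 137 in THP-1, a 4.52-fold fall (-2.18, SE 0.13, adjusted p = 2.9e-77). Of its exonic bases, 46.6% are shared with the annotated gene AC139530.2 on the same strand, so reads of that stretch could be counted for either gene. That gene had 0 counts in 3 libraries and 8 in THP-1 periplocin.

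SLC25A1, the carrier that exports citrate for fatty acid synthesis, lies on chromosome 22 from 19175575 to 19178830, minus strand. It had 4456 and 4164 counts in K562 (log2 fold change -0.12, SE 0.03). In THP-1 it fell from 1899 to 661 counts, or 2.45-fold (log2 fold change -1.29, SE 0.07, adjusted p = 8e-97, exact test). SLC25A11, the oxoglutarate/malate exchanger, had 352 and 387 counts in K562 and 613 and 359 in THP-1. SLC25A21, which imports oxodicarboxylates, had 1293 and 1236 counts in K562 and only 0 and 2 in THP-1, where no fold can be given.

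The citrate enzymes were measured beside the carriers. IDH2, the mitochondrial isocitrate dehydrogenase, fell in K562 from 1438 to 446 counts (log2 fold change -1.72, SE 0.08) and was the only one of 6 to pass in either line. ACLY, which splits the exported citrate, had log2 fold changes of -0.22 in K562 and -0.65 in THP-1. Of the 4 malate-aspartate shuttle enzymes, GOT1 fell in K562 from 4106 to 1523 counts (log2 fold change -1.46, SE 0.04), and none of the 4 passed in THP-1. The aspartate/glutamate exchangers of that shuttle did not pass: SLC25A12 had log2 fold changes of -0.34 in K562 and -0.08 in THP-1, and SLC25A13 -0.62 and 0.10.

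The amino acid carriers are 10 genes, of which SLC25A15 and SLC25A18 passed the test in both lines and SLC25A29 in THP-1. SLC25A15, which exchanges ornithine for citrulline, lies on chromosome 13 from 40789412 to 40810111, plus strand. It had 558 and 169 counts in K562, a 3.36-fold fall (log2 fold change -1.75, SE 0.13, adjusted p = 6.1e-50, exact test). The THP-1 libraries had 739 and 215 counts, a 2.93-fold fall (-1.55, SE 0.11, adjusted p = 4.2e-50). The difference between the lines in this change, 0.19 on the log2 scale (SE 0.17), did not pass (adjusted p = 0.34, likelihood ratio test in edgeR).

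The ornithine and urea cycle enzymes moved both ways. ASL, which splits argininosuccinate, fell in K562 from 250 to 75 counts (log2 fold change -1.76, SE 0.19), and its THP-1 counts fell from 592 to 66 (-2.93, SE 0.19). OAT, the mitochondrial enzyme that takes the amino group from ornithine, rose in K562 from 4558 to 13590 counts (1.55, SE 0.03). ARG2, the mitochondrial arginase, fell in K562 from 694 to 303 counts (-1.22, SE 0.10) and rose in THP-1 from 18 to 37 (1.26, SE 0.42). ASS1 fell in K562 from 1362 to 573 counts (-1.28, SE 0.07), and CPS1 fell in THP-1 from 38 to 8. OTC and ARG1 had 0 counts in all libraries.

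The glutamate carrier SLC25A18 rose in both lines, but from few reads. It had 6 and 21 counts in K562 (3.39-fold, log2 fold change 1.76, SE 0.67, adjusted p = 0.011, exact test) and 15 and 40 in THP-1 (3.11-fold, 1.64, SE 0.44, adjusted p = 0.00016). SLC25A22, the more abundant glutamate carrier, had 361 and 422 counts in K562 (0.20, SE 0.10) and 529 and 226 in THP-1 (-0.996, SE 0.12), which falls just short of the 2-fold limit. SLC25A29, which imports basic amino acids, had 119 and 64 counts in K562 (-0.92, SE 0.22) and fell from 454 to 183 in THP-1 (2.11-fold, -1.08, SE 0.13, adjusted p = 2.5e-18). SLC25A44, the branched-chain amino acid carrier, was higher by less than 2-fold in both lines, at 0.45 and 0.44 on the log2 scale (SE 0.08 and 0.06).

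The serine importers did not pass in either line. SFXN1 had 2515 and 2896 counts in K562 (log2 fold change 0.18, SE 0.04) and 1495 and 1119 in THP-1 (-0.19, SE 0.06). SFXN3 had 116 and 142 counts in K562 (0.27, SE 0.18) and 2638 and 2723 in THP-1 (0.28, SE 0.04). Of the enzymes that use matrix serine and glycine, 7 were tested in K562 and 8 in THP-1. In K562 0 rose and 4 fell, against 8.18% and 10.1% of all genes tested. In THP-1 2 rose and 2 fell, against 8.26% and 9.77%. SHMT2, which splits serine, fell in K562 from 12203 to 2348 counts (-2.40, SE 0.03), and MTHFD2 from 7900 to 3596 (-1.16, SE 0.03) and MTHFD1L from 3123 to 1302 (-1.29, SE 0.05). GCSH, a subunit of the glycine cleavage system, fell in K562 from 1360 to 684 counts (-1.02, SE 0.07) and also in THP-1, from 411 to 60 (-2.54, SE 0.20). In THP-1 GLDC fell from 60 to 10 counts, AMT rose from 30 to 53 and MTHFD2L from 47 to 89.

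The iron and heme group had a higher sum with periplocin in K562 and a lower one in THP-1. Its 5 members summed to 212 CPM in K562 DMSO and 327 CPM in K562 periplocin, a ratio of 1.55, and to 169 and 112 CPM in THP-1, a ratio of 0.663. SLC25A37 made 111 and 219 CPM of the K562 sums. The median log2 fold change of the 5 was -0.051 in K562 and -0.785 in THP-1. SLC25A37, mitoferrin 1, imports iron in erythroid cells. It had 1900 and 3801 counts in K562, 1.97-fold higher (log2 fold change 0.97, SE 0.04), just under the limit, which it passed with the size factors of DESeq2. The THP-1 libraries had 1667 and 1119 counts (-0.35, SE 0.06). SLC25A28, mitoferrin 2, the importer of other cells, had 173 and 170 counts in K562 (-0.05, SE 0.16) and 453 and 224 in THP-1 (-0.79, SE 0.12). SLC25A38, which imports glycine for the first step of heme synthesis, had 847 and 1379 counts in K562 (0.68, SE 0.06) and 553 and 395 in THP-1 (-0.26, SE 0.10).

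The sideroflexins of the group fell in both lines. SFXN2 lies on chromosome 10 from 102714538 to 102743492, plus strand, and had 99 and 44 counts in K562, a 2.29-fold fall (log2 fold change -1.19, SE 0.26, adjusted p = 5.6e-06, exact test). In THP-1 it had 240 and 29 counts, a 7.03-fold fall (-2.81, SE 0.28, adjusted p = 1.2e-34). The change in THP-1 was the largest fall of any member with more than 3 counts in both libraries. SFXN4, on chromosome 10 from 119140767 to 119165667, minus strand, is needed for iron-sulfur clusters and for complex I. It had 595 and 296 counts in K562, a 2.05-fold fall (-1.03, SE 0.10, adjusted p = 2.3e-24), and 427 and 121 in THP-1, a 3.01-fold fall (-1.59, SE 0.15, adjusted p = 3e-30).

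Of the 6 mitochondrial iron and heme genes measured beside the carriers, 3 rose in K562, against 8.18% of all genes tested. ALAS2, the erythroid enzyme that joins glycine to succinyl-CoA, rose in K562 from 1483 to 10789 counts (log2 fold change 2.84, SE 0.04), and it had 3 counts in each THP-1 library. FECH, which puts iron into heme, rose in K562 from 1445 to 7116 counts (2.27, SE 0.04) and had 798 and 391 in THP-1 (-0.80, SE 0.09). ALAS1, the housekeeping form, rose in K562 from 415 to 1019 counts (1.27, SE 0.08). NFS1 and ISCU, of iron-sulfur assembly, passed in neither line.

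Erythroid markers moved with these genes in K562. Of 14 markers, 13 rose there and 0 fell, and their summed level was 2498 CPM with DMSO and 13020 CPM with periplocin. Over all genes tested, 8.18% rose and 10.1% fell in K562, and 8.26% and 9.77% in THP-1. GATA1, the remaining marker, had 2715 and 4959 counts (log2 fold change 0.84). In THP-1 the sum was 13.0 and 10.1 CPM, with 5 and 8 of the 14 at or under 3 counts. There 0 rose and 2 fell, from few reads: HBG2 had 24 and 0 counts and HBA2 10 and 0. Their relatives HBG1 and HBA1 did not pass there, with 22 and 16 counts and 10 and 19. Of 12 monocytic markers, 3 rose (CD14, ITGAM and CYBB) and 2 fell (AZU1 and CD33) in K562, with sums of 97.2 and 104 CPM. In THP-1 the same 3 rose and 3 fell (MPO, S100A8 and S100A9), with sums of 1775 and 1636 CPM, and CD14 had 8 and 382 counts there. AZU1 alone made 1108 and 898 CPM of these THP-1 sums, so the sums follow this gene most. The part of these shifts in the carrier values was not tested.

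**Figure D4:**
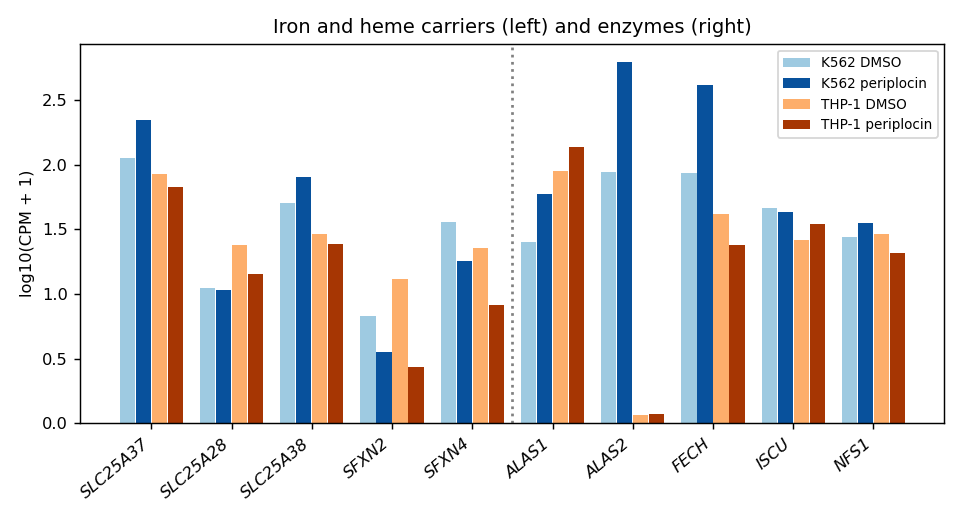
Level, as log10(CPM + 1), of the 5 iron and heme members (left of the dotted line) and of 5 mitochondrial iron and heme enzymes (right), in each of the 4 libraries. SLC25A37, SLC25A38, ALAS1, ALAS2 and FECH are higher with periplocin in K562, and SFXN2 and SFXN4 are lower with periplocin in both lines.

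The 12 carriers of cofactors and pyrimidine nucleotides had summed levels of 571 and 698 CPM in K562 (ratio 1.22) and of 523 and 386 CPM in THP-1 (ratio 0.742), and SLC25A39 made 172 and 256 CPM of the K562 sums. The median log2 fold change of the 11 of these carriers over 1 CPM was -0.03 in K562 and -0.38 in THP-1. SLC25A39, which imports glutathione, had 2932 and 4451 counts in K562 (log2 fold change 0.58, SE 0.03). In THP-1 it fell from 1554 to 592 counts, or 2.24-fold (-1.16, SE 0.07, adjusted p = 1.8e-67, exact test). Its relative SLC25A40 was instead higher in both lines, at 0.50 in K562 (SE 0.06) and 0.37 in THP-1 (SE 0.05), below the limit. SLC25A51, the NAD importer, rose in K562 from 150 to 324 counts, or 2.12-fold (1.08, SE 0.14, adjusted p = 1.7e-14), and had 246 and 229 in THP-1 (0.13, SE 0.13). Its near copy SLC25A52 had at most 1 count, so few reads were assigned to it.

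The coenzyme A carrier SLC25A42 had 893 and 1594 counts in K562 (log2 fold change 0.81, SE 0.06) and 185 and 137 in THP-1 (-0.20, SE 0.16). The peroxisomal cofactor carrier SLC25A17 had 770 and 1464 counts in K562 (0.90, SE 0.06) and 351 and 302 in THP-1 (0.01, SE 0.11). The pyrimidine nucleotide carriers SLC25A33 and SLC25A36 were lower by less than 2-fold in both lines, at -0.33 and -0.70 for K562, and at -0.38 and -0.64 for THP-1. SLC25A16, SLC25A26 and SLC25A32, which serve coenzyme A, S-adenosylmethionine and folate, passed in neither line, with log2 fold changes between -0.34 and -0.03 for K562 and between -0.71 and -0.37 for THP-1. SLC25A32 shares 69.7% of its exonic bases with AC012213.5 on the same strand, which had 0 counts in all libraries, and 11.1% with DCAF13 on the opposite strand. SLC25A26 shares 15.5% with LRIG1 on the opposite strand, which had 18 and 4 counts in K562 and 1077 and 716 in THP-1.

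The uncoupling protein relatives passed in neither line. SLC25A30 had 144 and 277 counts in K562 (log2 fold change 0.92, SE 0.15) and 440 and 580 in THP-1 (0.63, SE 0.09). SLC25A14 had 152 and 105 counts in K562 (-0.56, SE 0.18) and 63 and 64 in THP-1 (0.25, SE 0.26). SLC25A27 had 2 counts in each K562 library, and 10 and 4 in THP-1, a ratio of 0.469 with a 95% counting interval from 0.107 to 1.63. The uncoupling proteins proper carry UCP symbols, so the symbol rule, and not their family, leaves them out of the members. UCP2 fell in THP-1 from 2427 to 389 counts (-2.41, SE 0.08), and UCP3 rose there from 41 to 131 (1.90, SE 0.26). They were the only ones of 19 other mitochondrial solute transporters to pass in either line. Over all genes tested, 8.18% rose and 10.1% fell in K562, and 8.26% and 9.77% in THP-1.

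Of the 9 genes with no firmly assigned substrate, SLC25A34 fell in both lines, again from few reads. It had 28 and 7 counts in K562 (4.02-fold, log2 fold change -2.01, SE 0.61, adjusted p = 0.0006, exact test). In THP-1 it had 25 and 3 counts, a ratio of 0.141 with a 95% counting interval from 0.0272 to 0.461. SLC25A35 fell in K562 from 171 to 85 counts (2.05-fold, -1.03, SE 0.19, adjusted p = 8.4e-08) and had 171 and 109 in THP-1 (-0.42, SE 0.18). Its exons overlap those of RANGRF on the opposite strand over 33.2% of their bases, and the strand setting of the counting is not given in the sources used here. RANGRF had 228 and 245 counts in K562 and 102 and 111 in THP-1. SLC25A45 fell in THP-1 from 81 to 16 counts (4.29-fold, -2.10, SE 0.40, adjusted p = 3.7e-09) and had 44 and 24 in K562 (-0.90, SE 0.37).

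The others of these 9 passed in neither line. SFXN5 had 544 and 963 counts in K562 (log2 fold change 0.80, SE 0.08) and 298 and 285 in THP-1 (0.17, SE 0.12). SLC25A43 was lower in both lines, at -0.90 and -0.38. SLC25A46, an outer membrane protein of mitochondrial shape, had log2 fold changes of -0.20 in K562 and 0.33 in THP-1. SLC25A53 had 0 counts in K562 DMSO and 6 in K562 periplocin, and 5 and 3 in THP-1.

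Taking all members as a sum, the level was 2890 CPM in K562 DMSO and 3087 CPM in K562 periplocin, a ratio of 1.07, and 3121 and 2476 CPM in THP-1, a ratio of 0.797. The amino acid carriers had ratios of 0.930 in K562 and 0.983 in THP-1, and the adenine nucleotide carriers 0.909 and 0.766. Phosphate and carnitine carriers, a group of 2 genes, had ratios of 1.25 and 0.788. SLC25A3 made 588 of their 607 CPM in THP-1 DMSO, and SLC25A20, the other member, was higher in both lines. The sum of the uncoupling relatives had ratios of 1.27 and 1.48, with SLC25A30 the largest part of it with periplocin in both lines. SLC25A14, another member, was lower in K562 (log2 fold change -0.56). The UCP genes are not in this sum. In THP-1, UCP2 fell from 2427 to 389 counts and UCP3 rose from 41 to 131, so the ratios describe the SLC25A relatives only.

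**Figure D5:**
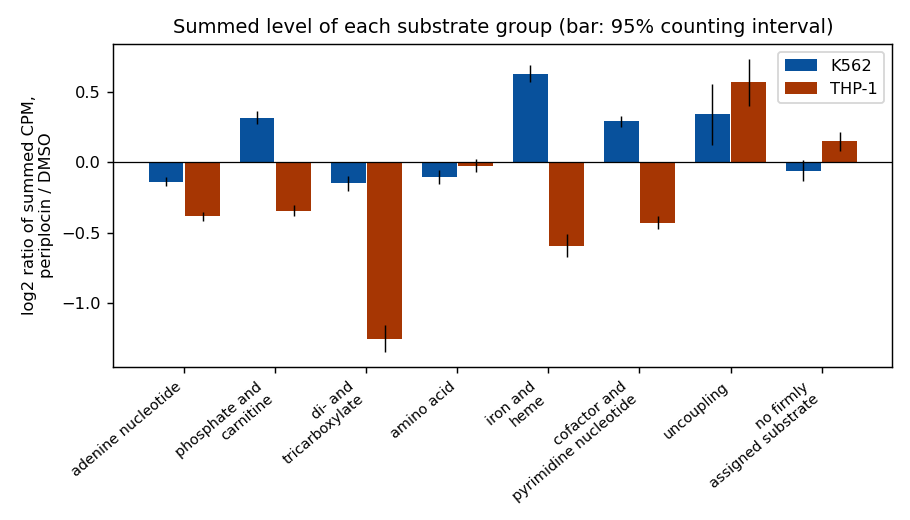
Log2 ratio of the summed CPM of each substrate group, periplocin over DMSO, in K562 and THP-1, with 95% counting intervals. The sums of iron and heme, cofactor, and phosphate and carnitine carriers lie above 0 in K562 and below it in THP-1. The phosphate and carnitine sum follows SLC25A3, while SLC25A20 was higher in both lines. The di- and tricarboxylate group has the lowest bar, in THP-1. The uncoupling group holds the SLC25A relatives only and leaves out the UCP genes.

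Whether the response differed between the lines was tested on the difference itself, with a likelihood ratio test in edgeR that allows for counting error only. Of 46 members tested, 7 passed with a lower response in THP-1, against 9.64% of all genes, and 0 with a higher one, against 10.9%. Whatever the size, 23 of the 46 were lower in THP-1 at an unadjusted p under 0.05, against 32.6% of all genes, and 7 higher, against 28.9%. At an adjusted p the counts were 22, against 31.0%, and 7, against 27.4%. The 7 that passed with the 2-fold limit were SLC25A1, SLC25A22, SLC25A37, SLC25A39, SLC25A42, SLC25A45 and SFXN2. SLC25A39 had the largest difference, at -1.74 on the log2 scale (SE 0.08, adjusted p = 1.3e-120), from 0.58 in K562 to -1.16 in THP-1. SFXN2, with -1.63 (SE 0.39, adjusted p = 5e-05), fell in both lines and further in THP-1. SLC25A37 differed by -1.33 (SE 0.07, adjusted p = 4.3e-83) and changed sign.

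A fit of both lines together, with line and treatment as terms, took as its error how far the lines differ in response, with 1 residual degree of freedom. By edgeR's quasi-likelihood test 0 of 46 members passed at an adjusted p under 0.05, as did 0 of 13568 genes. DESeq2 with the same terms gave 0 of 42 members and 130 of 10937 genes. At an unadjusted p under 0.05 the quasi-likelihood test gave 9 of 46 members, against 11.1% of all genes. These were SLC25A15, SLC25A10, SLC25A6, SFXN4, SFXN2, SLC25A25, SLC25A34, SLC25A36 and SLC25A20. SLC25A20 and SLC25A25 were higher with periplocin in both lines, and the other 7 lower.

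The starting levels were compared in the same way. Between the DMSO libraries, 8 of 51 members were higher in THP-1 than in K562, against 21.7% of all genes, and 11 were lower, against 19.5%. The serine importer SFXN3 was 19.6-fold higher in THP-1, at 134 CPM against 6.80 CPM. SLC25A29, SLC25A30, SLC25A28, SLC25A44, SFXN2 and SLC25A6 were between 2.07-fold and 3.29-fold higher. SLC25A21 was at least 499-fold lower in THP-1, with its 0 counts set at the floor of 3. SLC25A25, SLC25A4 and SLC25A42 were 7.90-fold, 5.98-fold and 5.58-fold lower, and SLC25A41, SLC25A13, SLC25A14, SLC25A1, SLC25A17, SLC25A39 and SFXN5 between 2.11-fold and 3.91-fold lower.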

How the data were processed

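Poly-A RNA of 4 cultures was sequenced as paired-end reads, on the T7 platform by the methods and on an Illumina instrument per the labels. The authors deposited a table of expected counts per gene, neither normalized nor pooled, in which 87.4% to 88.3% of values are whole. HISAT2, StringTie 1.3.1 and hg38 appear in the submitters' processing notes. The counting program and its strand setting are not given in the sources used here. Counts were rounded, and 18 pseudoautosomal gene pairs with equal X and Y rows were added up, which left 20330 genes. There were 0 unused columns of values.

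In each line, TMM scaling and the exact binomial test of edgeR 4.0.16 (R 4.3.3) at a dispersion of 0 were applied to genes with at least 1 count, with Benjamini-Hochberg adjustment over all of them, an adjusted p under 0.05 and a log2 fold change of at least 1 (prior count 0.125). This test compares 1 library with 1 library, has no replicate check and takes counting error as the least error. Interaction (likelihood ratio) and both-line (quasi-likelihood) fits used genes that reached 10 counts in 2 or more libraries. DESeq2 1.42.0 was an alternative to the latter. CPM used TMM sizes of all 4 libraries, and a count of 3 or fewer was the floor. 1 count was worth between 0.0506 and 0.0591 CPM. Coordinates, transcript lengths (median of consensus coding transcripts) and exon overlaps came from GENCODE 29 (GRCh38), and promoter windows from RefSeq. Scripts were tested on simulated data. Members, the 8 substrate groups, the 55 companion genes, the markers and the motifs were chosen with earlier results of these data known. Every member may be named, in full where it passed in a line, is among the 5 highest levels or belongs to the iron and heme or uncoupling groups, and companion genes where they passed or stand beside a named carrier. Erythroid and monocytic markers were added after values were seen. No protein sequences were used here. Some genes and sequences of these sets are not reported here, though counts and sums over the sets include them.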

Additional observations from a re-analysis of the deposited data

Results flagged for a closer look

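The response to periplocin of 7 members differed between the lines, by a likelihood ratio test of the difference in edgeR that covers counting error only, with 1 library per condition. The log2 response in THP-1 minus that in K562 was -1.74 for SLC25A39, -1.63 for SFXN2, -1.33 for SLC25A37, -1.21 for SLC25A45, -1.20 for SLC25A22, -1.18 for SLC25A1 and -1.02 for SLC25A42. SLC25A39 and SLC25A37 were higher with periplocin in K562 and lower in THP-1, each with an adjusted p under 0.05. SLC25A22 in K562 (edgeR's exact test, adjusted p = 0.093) and SLC25A42 in THP-1 (adjusted p = 0.29) missed the threshold, and SLC25A1, SLC25A45 and SFXN2 were lower in both lines. The erythroid markers, of which 13 of 14 rose in K562, moved with SLC25A37 there, and their part was not tested. In THP-1 0 of these markers rose and 2 fell, with 5 and 8 of the 14 at or under 3 counts. With an assumed dispersion of 0.04 between replicates, SLC25A39 alone of the 7 passed.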

How the results depend on the processing

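The direction of every member that passed in a line, between the DMSO libraries or in the difference between lines was the same under all alternatives run. Dispersion, filter and fold-limit settings leave a pair's fold change unchanged. The other scalings moved the all-gene medians only by between -0.127 and 0.026 (log2). A reversal of such calls was therefore hardly possible. The assumed spread between replicates, which 1 library per condition cannot give, decided most calls. In K562, at dispersions of 0.04 and 0.16, 0 and 0 members rose and 2 (SLC25A10 and SLC25A15) and 0 fell, against 3 and 7. In THP-1, 0 and 0 rose, against 1, and 7 fell at 0.04 but 0 at 0.16, against 10. The difference between the lines passed for 1 and 0 members, against 7, and the DMSO libraries differed in 5 of the 19 at 0.16. With a log2 limit of 2, K562 had 0 higher and 1 lower, THP-1 0 and 4, the DMSO libraries 5, and the difference between lines 0. SLC25A37 passed in K562 with DESeq2 size factors and SLC25A22 in THP-1 with total counts. SLC25A42 lost, and SLC25A24 gained, its difference between lines with DESeq2 size factors, and SLC25A45 lost its own at a dispersion of 0.01. Total counts moved the median of all genes between the DMSO libraries by -0.12 (log2), where SLC25A6, SLC25A44 and SFXN2 lost their call and SFXN1 and SLC25A12 gained one. The K562 median of members was -0.05 at 5 CPM and the THP-1 median between -0.41 and -0.37 throughout.

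With the pseudoautosomal rows kept apart, an alternative chosen after seeing the data, the log2 ratio of summed adenine nucleotide carriers was -0.019 in K562 and -0.27 in THP-1, against -0.14 and -0.38, and that of all members 0.13 and -0.29, against 0.10 and -0.33. DESeq2 size factors gave 0.12 for all members in K562. The fit of both lines pairs the libraries within a line, and no pairing by replicate exists. Leaving out a library leaves nothing to compare. The calls of SLC25A18 and SLC25A34 rest on few reads.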
